A study of Mus musculus with 12 samples.

Results

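The proteasome is the protease complex that degrades ubiquitin-tagged proteins in the cytosol and nucleus. The genes described here encode its subunits, its activators and inhibitor, the chaperones that assemble it, and the factors known to set the transcription or nuclear import of the complex. Members were chosen by gene symbol, as every row named Psma to Psmg followed by a digit, plus Pomp, Nfe2l1, Ddi2, Adrm1 and Akirin2. This gave 55 of the 24824 rows of the expression table, of which 54 passed the filter on low values, among 10615 genes tested. The family itself was chosen with the comparison of groups B and A already known, so that comparison is given below as a description without a test.

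Polyadenylated RNA of AML12, an immortalized mouse hepatocyte line, was sequenced after 24 h in 4 groups of 3 libraries. Group A stayed in standard growth medium. In group B the medium held CuCl2 at 300 μM and elesclomol, which carries copper into cells, at 40 nM (together Cu/ES). Group D was given taurocholic acid (TCA), a conjugated bile acid, at 1000 μM, and group C both Cu/ES and TCA at these doses. All libraries came from this 1 line, and the labels do not say whether the 3 libraries of a group came from separate cultures, so that p-values measure the spread between these libraries, which may be technical.

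The values are FPKM, reads scaled to gene length and library total. The defining hepatocyte markers Alb and Hnf4a were at or near 0 in every library (at most 0.0758 and 0.0305 FPKM), while the keratin genes Krt8 and Krt18 were at 344 ± 37.7 and 285 ± 22.7 FPKM in group A, and the biliary keratin Krt19 was at 267.7 ± 45.2 FPKM (mean ± SD, n = 3). Summed over the 8 hepatocyte markers listed, the level ran from 604.6 to 658 FPKM in group A, 264 to 317 in B, 206 to 246.5 in C and 711 to 729 in D. The 9 markers of other liver cells summed to 236 to 324 FPKM in A, 75.2 to 96.2 in B, 96.5 to 103.7 in C and 158 to 244 in D. Krt8 and Krt18 made up most of the first sum and Krt19 most of the second, and single markers went both ways with Cu/ES. In mean FPKM Krt8, Krt18 and Foxa2 were lower, and Apoe, Afp and Apoa1 were higher. Apoe was at 1.73 FPKM in A, 7.96 in B and 20.5 in C. Of the other list, Krt19 and Des were lower, and Cdh5 and Pecam1 higher (Pecam1 at 0.214 FPKM in A, 6.85 in B and 16.05 in C). The part of these shifts in the proteasome values was not tested. Across all genes tested the median log2 fold change was -1.10 in group B vs. A and -1.13 in group C vs. D, and close to 0 for TCA (-0.03 in C vs. B and -0.01 in D vs. A). A negative value in a Cu/ES comparison is therefore read against that median, and values under a median-ratio scaling of the libraries, which removes most of this shift, are given where they change a direction. Values scaled to the library total measure neither the number of cells nor the RNA per cell, so a loss of either cannot be read from these medians.

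In the assembled complex, a barrel-shaped 20S core of alpha and beta subunits holds the protease sites inside, and a 19S particle of ATPase and non-ATPase subunits binds, unfolds and feeds in the substrate. Most of these subunit genes are expressed together in every cell, and the transcription factor NRF1, encoded by Nfe2l1, is known to raise them as a group when proteasome activity is insufficient. Interferon induces the immunoproteasome subunits Psmb8, Psmb9 and Psmb10, which take the place of the catalytic beta subunits, and raises the activator subunits Psme1 and Psme2.

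NRF1 and its relative NRF2 bind antioxidant response elements, so the promoters of the subunits were searched for the letters TGACNNNGC on both strands. Promoter windows of RefSeq on the assembly GRCm38.p6, holding 250 bases before and 50 bases after each start site, were found for 48 of the 55 members. The files were made on GRCm39, so no coordinate of the files themselves is given. Of 27 constitutive 20S and 19S subunits with a window, which include the untested Psmb11, 5 held the letters (18.5%), against 3781 of all 27025 genes with a window and 17.2% of the genes tested. Their matches follow, because they include Adrm1, the member with the largest rise in group C vs. D, and Psmb5, which did not pass there, with the matching letters in capitals, read 5′ to 3′ along the strand of the gene.
Adrm1, chr2:180171401-180171459, plus strand: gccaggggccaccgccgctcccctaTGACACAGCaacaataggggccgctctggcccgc
Psmd12, chr11:107479278-107479314, plus strand: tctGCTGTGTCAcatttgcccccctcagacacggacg
Psmc6, chr14:45329574-45329630, plus strand: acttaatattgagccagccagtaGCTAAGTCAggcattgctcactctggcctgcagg
Psmb6, chr11:70525323-70525356, plus strand: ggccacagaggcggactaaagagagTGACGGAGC
Psmb5, chr14:54618009-54618067, minus strand: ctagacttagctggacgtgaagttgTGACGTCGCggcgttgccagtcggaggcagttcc
In Psmd12 and Psmc6 the match lay on the opposite strand, so its reverse complement stands in capitals. The log2 fold changes of these 5 genes in group C vs. D ran from 0.13 (Psmb5) to 2.70 (Adrm1), with a median of 1.27 against 1.30 for the 21 tested constitutive subunits whose window lacked the letters. Metal response elements (TGCACNC or TGCGCNC) were in 40.7% of the 27 and in 40.8% of the genes tested, and the CCAAT box (CCAAT) in 44.4% and 43.5%. The heat shock element, searched as alternating blocks of GAA and TTC, was in 0 of the 27 and in 0.576% of the genes tested. The shares of the subunits were close to those of other expressed genes, and a match or its lack in these windows is a description only.

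Cu/ES in the presence of TCA (group C vs. D) was tested between 6 libraries outside B vs. A, the comparison that led to the choice of the family. Members and classes were set with earlier results of these data known, so the split by class is not shown to be independent of groups C and D. All 12 libraries entered 1 limma fit of log2(FPKM + 1), with Benjamini-Hochberg adjustment over the genes tested. A call in either direction needed an adjusted p below 0.05 together with a log2 fold change beyond 1 in size. Constitutive subunits of both particles rose: 20 of the 32 tested were higher past both thresholds and 0 were lower, with a median log2 fold change of 1.25. By the adjusted p alone 29 were higher and 2 (Psma7 and Psmd3) were lower. Over all 54 members 22 rose and 16 fell, so that 40.7% rose against 11.2% of all genes tested, and 29.6% fell against 53.3%. Of the 22 members outside the constitutive particles, 2 (Pomp and Psme4) rose and 16 fell. These are 9.09% and 72.7%, against the 11.2% and 53.3% of all genes tested. Their median log2 fold change was -1.58, against -1.13 for all genes tested, so many of these falls stand near the shift of the median gene.

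Summed over the constitutive subunits, the level was 4460, 4054 and 4169 FPKM in the libraries of group D and 10620, 12700 and 10910 FPKM in those of group C. It was 3615, 3789 and 3816 FPKM in group A and 11560, 11850 and 12160 FPKM in group B. The groups with Cu/ES lay apart from those without, and the subunits took 2.41% ± 0.0958 of all FPKM in group C against 1.09% ± 0.0283 in D, and 2.38% ± 0.0261 in B against 0.973% ± 0.0135 in A (mean ± SD, n = 3). For single genes, every library of group C was above every library of group D in 29 of the 32 subunits, as it was for 20.4% of all genes tested.

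**Figure D1:**
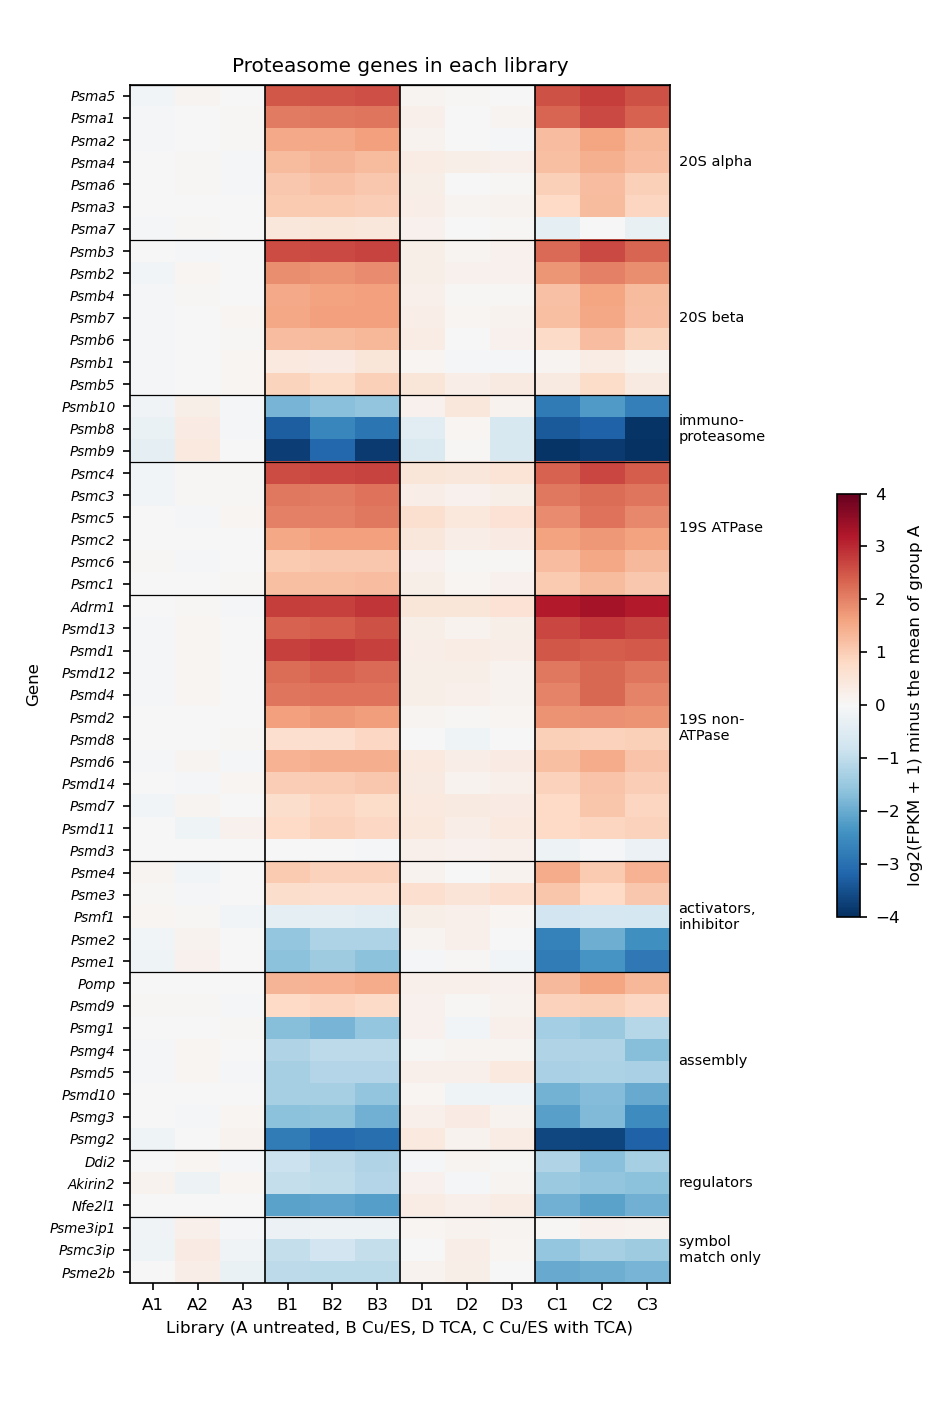
Heat map of log2(FPKM + 1) of the 54 tested members in each of the 12 libraries, minus the mean of the 3 libraries of group A, by class and in the order of the log2 fold change in group C vs. D. Red is above and blue below group A: the 20S and 19S subunits are above group A in B and C except for Psmd3 and, in C, Psma7, and the immunoproteasome, Psme1, Psme2, most assembly factors and the regulators are blue.

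The alpha subunits form the outer rings of the core and gate the entry of substrates. Psma5 was at 181, 172 and 168 FPKM in group D and at 971, 1127 and 983 FPKM in group C. In groups A and B it was at 154, 179 and 165 and at 925, 949 and 986 FPKM. Its level rose with Cu/ES in every library, by 2.56 ± 0.07 on the log2 scale in group C vs. D (± gives the standard error for fold changes, and adjusted p = 3.61e-13 by limma with Benjamini-Hochberg). Psma1 followed with 2.33 ± 0.08, and Psma2 and Psma4 also passed both thresholds, while Psma6 (0.94) and Psma3 (0.81) passed the adjusted p alone.

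Psma7 stood apart from the other alpha subunits. It was at 179, 161.5 and 164 FPKM in group D and at 124, 163 and 129.9 FPKM in group C, with overlapping ranges. In groups A and B it was at 151, 165 and 162 and at 218, 222 and 220.5 FPKM. The log2 fold change of -0.28 ± 0.09 in group C vs. D passed the adjusted p (limma with Benjamini-Hochberg, 0.0069) but not the fold threshold, and it turned to 0.97 under median-ratio scaling, so Psma7 lay above the median gene while its share of the library was lower.

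Among the beta subunits, Psmb5, Psmb6 and Psmb7 carry the protease sites (chymotrypsin-like, caspase-like and trypsin-like). Psmb3, a structural beta subunit, had the largest change of the class. It was at 203, 186 and 193 FPKM in group D and at 833, 1085 and 860.5 FPKM in group C, against 174, 166 and 174 FPKM in A and 1057, 1069 and 1124 FPKM in B. No library with Cu/ES came near one without, and the log2 fold change in group C vs. D was 2.24 ± 0.09 (limma with Benjamini-Hochberg, adjusted p = 4.99e-12). Psmb2 (1.69), Psmb4 (1.24) and Psmb7 (1.17) also passed both thresholds.

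The 3 catalytic subunits changed unequally. Psmb7 was at 258, 226 and 234 FPKM in group D and at 493, 623 and 507 FPKM in group C. Psmb6 was at 168, 139 and 155 FPKM in group D and at 234, 325 and 255 FPKM in group C, a log2 fold change of 0.80 ± 0.10 that passed the adjusted p alone (limma with Benjamini-Hochberg, 4e-06). Psmb5 was at 190.2, 163.5 and 173 FPKM in group D and at 175, 229 and 176 FPKM in group C. The ranges of Psmb5 overlapped and its log2 fold change of 0.13 ± 0.10 missed the threshold (adjusted p = 0.226 in limma, Benjamini-Hochberg), and its direction moved with the scaling: 1.38 with median-ratio scaling, -0.16 as TPM and -0.22 with quantile normalization. Psmb1, which passed the adjusted p alone at 0.19 ± 0.07, likewise went to 1.45, -0.10 and -0.275 in these settings. Without TCA all of these were higher: in groups A and B Psmb5 was at 129, 137 and 142 and at 251, 227 and 267 FPKM, Psmb6 at 129, 139.5 and 141.5 and at 324, 327 and 348 FPKM, and Psmb7 at 206, 209 and 224 and at 624.5, 664 and 666 FPKM. Psmb11, the thymus-specific beta subunit, did not pass the filter and was at 0.0736 FPKM or less in every library, so 1 member stayed untested.

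The immunoproteasome subunits fell in group C vs. D, all 3 of them, and by more than the median gene. Psmb8, the partner of Psmb5, was at 21.2, 30.9 and 18.4 FPKM in group D and at 1.94, 2.18 and 0.987 FPKM in group C. It was at 23.9, 36.4 and 27.97 FPKM in A and at 2.04, 3.91 and 2.95 FPKM in B. Its ranges with and without Cu/ES did not overlap, and the log2 fold change in group C vs. D was -3.18 ± 0.23 (limma with Benjamini-Hochberg, adjusted p = 4.54e-09).

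Psmb9, the partner of Psmb6, was at 9.56, 15.3 and 9.26 FPKM in group D and at 0.0536, 0.112 and 0.0242 FPKM in group C, where it rested on 1 to 5 reads a library. In A it was at 10.99, 19.98 and 14.85 FPKM and in B at 0.172, 0.805 and 0.127 FPKM. It was nearly lost from both groups with Cu/ES, and its log2 fold change of -3.51 ± 0.22 in group C vs. D (limma with Benjamini-Hochberg, adjusted p = 1.15e-09) understates the change at such low values. Psmb10, the partner of Psmb7, was at 32.3, 39.4 and 31.5 FPKM in D and at 3.14, 5.19 and 3.46 FPKM in C, against 25.7, 33.3 and 26.9 FPKM in A and 7.11, 8.27 and 8.80 FPKM in B. It fell by 2.86 ± 0.15 on the log2 scale in group C vs. D (limma with Benjamini-Hochberg, adjusted p = 1.03e-10). Under median-ratio scaling these 3 changes were -2.16 for Psmb8, -2.89 for Psmb9 and -1.73 for Psmb10.

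Read per pair, Psmb8 reached 21.6% ± 4.34 of the level of Psmb5 in group A and 13.6% ± 4.62 in D, but 1.21% ± 0.466 in B and 0.873% ± 0.281 in C (mean ± SD, n = 3). Psmb10 reached 13.5% ± 2.14 of Psmb7 in A and 14.5% ± 2.61 in D, against 1.24% ± 0.092 in B and 0.717% ± 0.102 in C. Psmb9 ranged from 8.52% to 14.3% of Psmb6 in A and from 5.67% to 10.96% in D, and did not exceed 0.246% in B or 0.0344% in C. These ratios are taken within a library, so that scaling each library by 1 factor does not move them, whereas quantile normalization can.

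**Figure D2:**
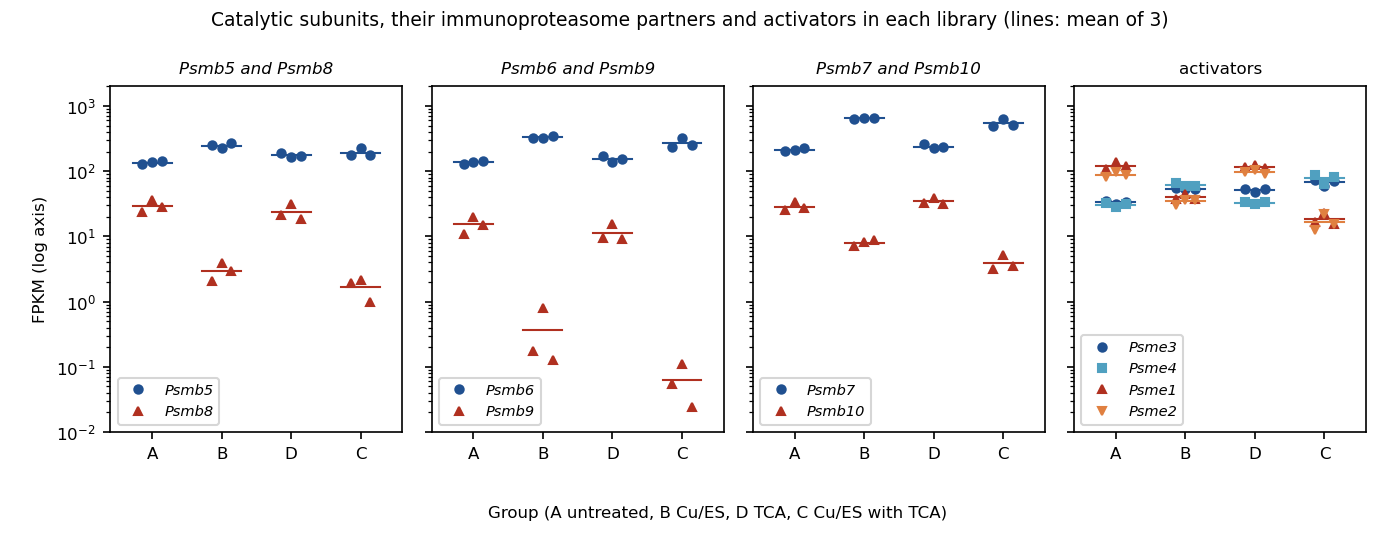
FPKM on a log axis of the catalytic subunits with their immunoproteasome partners, and of the 4 activator genes, in the 3 libraries of each group, with lines at the group means. The partners part with Cu/ES: Psmb6 and Psmb7 lie above and Psmb5 overlaps its level in group D, while Psmb8, Psmb9 and Psmb10 are lower, down to 0.0242 FPKM for Psmb9.

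The 6 ATPase subunits form the ring that unfolds substrates and opens the core. All 6 rose by the adjusted p in group C vs. D, and 5 passed both thresholds. Psmc4 was at 84.6, 81.97 and 87.6 FPKM in D and at 313, 388.5 and 327 FPKM in C, against 56.1, 62.8 and 62.0 FPKM in A and 374, 393 and 397 FPKM in B. It rose by 1.999 ± 0.078 on the log2 scale in group C vs. D (limma with Benjamini-Hochberg, adjusted p = 6.29e-12). Psmc1 changed least, from 144, 128.5 and 135.5 FPKM in D to 250.2, 291 and 258 FPKM in C, a log2 fold change of 0.96 ± 0.07. It was at 119, 119 and 125 FPKM in A and at 277, 280.4 and 285.5 FPKM in B. The ranges did not overlap for any of the 6 genes. Psmc3 (1.93), Psmc5 (1.46), Psmc2 (1.30) and Psmc6 (1.27) lay between them. Among the 4 classes of constitutive subunits the ATPases were the most even, with log2 fold changes within 1.03 of each other, against 2.84 for the alpha, 2.11 for the beta and 3.06 for the non-ATPase subunits.

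The non-ATPase subunits build the lid and base of the 19S particle and hold its ubiquitin receptors. Of 12, 7 rose past both thresholds, 11 were higher by the adjusted p and Psmd3 was lower. Adrm1, a ubiquitin receptor, was at 69.0, 69.0 and 73.2 FPKM in D and at 445, 499 and 449.5 FPKM in C, against 48.7, 50.9 and 47.4 FPKM in A and 343, 333 and 362 FPKM in B. It had the largest rise of the family, 2.70 ± 0.06 on the log2 scale in group C vs. D (limma with Benjamini-Hochberg, adjusted p = 8.23e-14). Psmd13 (2.52), Psmd1 (2.18), which is a large scaffold subunit, Psmd12 (1.97), the ubiquitin receptor Psmd4 (1.90) and the scaffold subunit Psmd2 (1.73) followed. Psmd8 was at the fold threshold, just inside it, and Psmd6 just outside at 0.96, and the deubiquitinase Psmd14 (0.79), Psmd7 (0.56) and Psmd11 (0.50) passed the adjusted p alone.

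Psmd3, a lid subunit, did not share the rise. It was at 109.6, 106.9 and 109 FPKM in D and at 82.2, 91.3 and 79.99 FPKM in C, and at 93.5, 93.2 and 95.5 FPKM in A and 94.9, 93.4 and 90.5 FPKM in B. All libraries of C lay below those of D, by 0.36 ± 0.06 on the log2 scale (limma with Benjamini-Hochberg, adjusted p = 4.32e-05), while A and B overlapped. Median-ratio scaling gave a log2 fold change of 0.89 in group C vs. D. In group A the 18 subunits of the 19S particle lay within 2.63-fold of each other in mean FPKM, from Psmd13 to Psmd14, and in group C within 6.06-fold, from Psmd3 to Psmd4. Levels per length depend on the gene lengths the authors used.

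Activators dock on the core in place of the 19S particle. Psme1 and Psme2 form the interferon-inducible PA28 ring, Psme3 forms the nuclear PA28 gamma ring and Psme4 encodes PA200. Psme1 was at 116, 124 and 111 FPKM in D and at 16.4, 22.7 and 15.8 FPKM in C, against 107.5, 136 and 119 FPKM in A and 38.0, 44.7 and 38.0 FPKM in B. It fell in every library with Cu/ES, and by 2.63 ± 0.12 on the log2 scale in group C vs. D (limma with Benjamini-Hochberg, adjusted p = 4.24e-11). Psme2 was at 96.6, 103.1 and 90.4 FPKM in D and at 12.7, 22.2 and 15.3 FPKM in C, against 81.8, 97.1 and 87.8 FPKM in A and 30.0, 36.7 and 36.7 FPKM in B, a log2 fold change of -2.496 ± 0.149 in group C vs. D (limma with Benjamini-Hochberg, adjusted p = 6.13e-10). Psme2 has a near-identical copy, Psme2b, and reads shared between them make both values uncertain.

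Psme4 took the opposite course. It was at 34.0, 31.3 and 33.9 FPKM in D and at 88.2, 63.9 and 82.6 FPKM in C, against 32.9, 28.2 and 31.2 FPKM in A and 65.1, 58.7 and 59.5 FPKM in B. It rose by 1.204 ± 0.103 on the log2 scale in group C vs. D (limma with Benjamini-Hochberg, adjusted p = 3.76e-08). Psme3 was higher by 0.38 ± 0.08 and the inhibitor Psmf1 lower by 0.88 (standard error 0.08), both past the adjusted p and short of the fold threshold, and Psmf1 turned to 0.24 under median-ratio scaling. As a ratio taken within a library, Psme1 was at 365% ± 58.4 of Psme3 in A and 228% ± 26.6 in D, and at 74.1% ± 7.55 in B and 27.7% ± 9.38 in C (mean ± SD, n = 3).

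The assembly factors did not follow the subunits they assemble. Pomp, which completes the core by maturing its beta ring, rose, from 127, 125 and 122 FPKM in D to 269, 329 and 273 FPKM in C, with 109.8, 108 and 109 FPKM in A and 282, 286 and 308.5 FPKM in B. Its log2 fold change in group C vs. D was 1.21 ± 0.07 (limma with Benjamini-Hochberg, adjusted p = 7.23e-10). Psmd9, a chaperone of the ATPase ring, was higher by 0.80 ± 0.07. The other 6 factors fell past both thresholds: the alpha ring chaperones Psmg1 (-1.42), Psmg2 (-3.79), Psmg3 (-2.38) and Psmg4 (-1.46), and the ATPase ring chaperones Psmd5 (-1.53) and Psmd10 (-1.80).

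On the scale of log2(FPKM + 1) Psmg2 had the largest fall of the family. By the ratio of mean FPKM in C to that in D, Psmb9 fell further, to 0.00556 against 0.0312 for Psmg2. That of Psmb9 rests on 1 to 5 reads a library in C. Psmg2 was at 24.2, 19.99 and 22.5 FPKM in D and at 0.541, 0.494 and 1.045 FPKM in C, resting there on 21 to 45 reads a library. It was at 16.1, 18.4 and 20.2 FPKM in A and at 1.73, 1.24 and 1.365 FPKM in B. The groups with and without Cu/ES did not overlap (group C vs. D, limma with Benjamini-Hochberg, adjusted p = 1.61e-12). Under median-ratio scaling Psmg2 (-2.91) and Psmg3 (-1.36) still passed both thresholds, while Psmg1 (-0.31), Psmg4 (-0.32), Psmd5 (-0.34) and Psmd10 (-0.67) did not pass the fold threshold.

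The 3 regulators fell in group C vs. D. Nfe2l1 was at 146, 139.6 and 147.5 FPKM in D and at 31.2, 26.2 and 31.1 FPKM in C, against 121, 118 and 121.5 FPKM in A and 26.1, 27.1 and 25.2 FPKM in B. The mRNA of this activator of subunit genes was lower in every library with Cu/ES, by 2.26 ± 0.07 on the log2 scale in group C vs. D (limma with Benjamini-Hochberg, adjusted p = 6.76e-13). Under median-ratio scaling its log2 fold change was -1.02, close to the fold threshold. With limma-voom on recovered reads under that scaling it was -0.91, short of the threshold. Ddi2, the protease that activates NRF1, was at 6.05, 7.06 and 6.64 FPKM in D and at 2.19, 1.35 and 1.96 FPKM in C, with 6.27, 6.87 and 6.16 FPKM in A and 3.11, 2.60 and 2.20 FPKM in B. Its log2 fold change of -1.43 ± 0.12 in group C vs. D was -0.47 under median-ratio scaling. Akirin2, which carries proteasomes into the nucleus, had -1.62 ± 0.09 and, under that scaling, -0.40.

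Of the 3 rows that the symbol alone brought in, Psme2b fell (-2.08 ± 0.11) and so did Psmc3ip (-1.54 ± 0.13), a recombination factor that is no proteasome subunit. Psme2b was at 26.8, 28.9 and 24.3 FPKM in D and at 5.19, 5.45 and 5.95 FPKM in C, with 24.2, 29.1 and 20.1 FPKM in A and 11.2, 11.1 and 10.9 FPKM in B. Psme3ip1, which binds PA28 gamma, was at 26.1, 27.4 and 26.8 FPKM in D and at 25.9, 28.4 and 27.8 FPKM in C, with 22.7, 28.5 and 23.7 FPKM in A and 21.1, 21.4 and 21.7 FPKM in B. Its log2 fold change of 0.03 ± 0.08 missed the threshold (adjusted p = 0.723 in limma, Benjamini-Hochberg).

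With median-ratio scaling 35 members rose and 8 fell past both thresholds in group C vs. D. The 8 were Psmb8, Psmb9, Psmb10, Psme1, Psme2, Psmg2, Psmg3 and Nfe2l1, and they fell under quantile normalization too. Leaving out library 2 of group C, which was the highest of its group in 29 of the 32 constitutive subunits (by a median of 0.165 log2 above the group mean), gave 21 members higher and 16 lower and a median of 1.15 for the constitutive subunits.

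Cu/ES without TCA is described by its values alone, since this comparison led to the choice of the family. Between groups B and A, 26 members were higher and 15 lower by a log2 fold change beyond 1, with no test applied, where 10.1% of all genes tested were higher and 53.0% lower by that size. The median log2 fold change was 1.58 for the constitutive subunits, of which 25 of 32 were higher by more than 1. The largest values were those of Adrm1 (2.80), Psmd1 (2.77), Psmc4 (2.67) and Psmb3 (2.65), and the lowest those of Psmb9 (-3.57), Psmg2 (-2.97), Psmb8 (-2.95) and Nfe2l1 (-2.16). Psmd3 was at -0.02. Across the 54 members the log2 fold changes of B vs. A and C vs. D, which share no library, had the same sign for 52, with Pearson's r = 0.98 and Spearman's rho = 0.97 across genes, which are not independent replicates and share the overall shift. Within the 32 constitutive subunits r was 0.95, and the value was the larger one in B vs. A for 26.

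**Figure D3:**
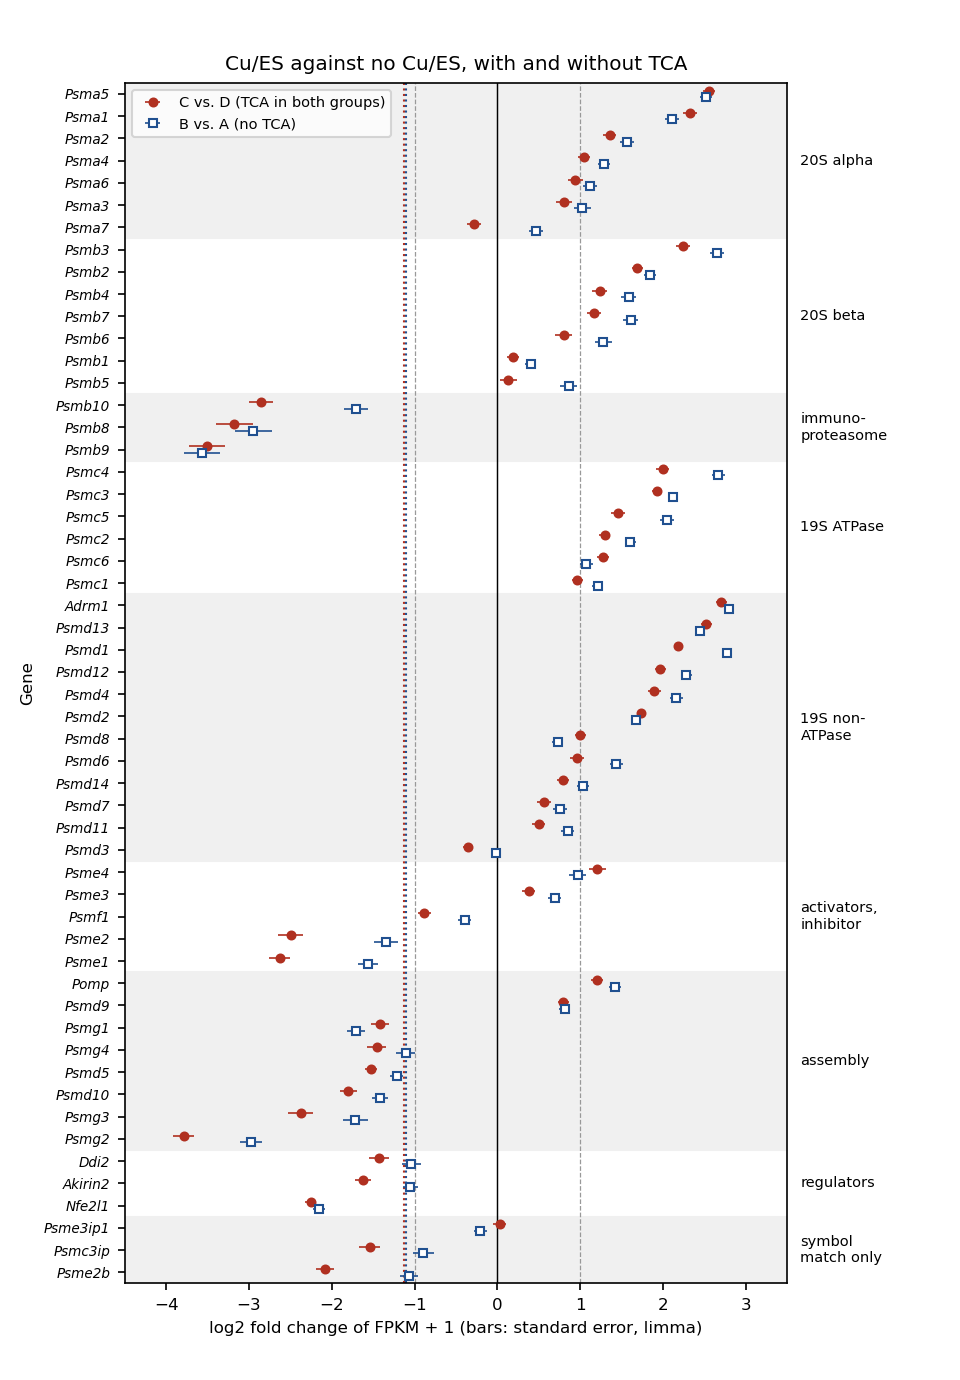
Log2 fold change of FPKM + 1 for each tested member by class, with standard error, for Cu/ES with TCA in both groups (C vs. D, filled circles) and without TCA (B vs. A, open squares). Dotted lines mark the median of all genes tested (-1.13 and -1.10) and dashed lines the fold threshold: the 20S and 19S subunits lie right of 0 except for Psma7 in C vs. D and Psmd3, and the immunoproteasome, Psme1, Psme2, Psmg2, Psmg3 and Nfe2l1 lie left of the dotted lines. Psmg1, Psmg4, Psmd5 and Psmd10 lie left of them too, Psmg4 only just in B vs. A (-1.11).

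The effect of TCA with Cu/ES present (group C vs. B) was small for most members. This comparison shares group B with the one that led to the choice of the family, and that choice favours members with high values in B. By the adjusted p, 10 members were higher and 19 lower, which is 18.5% and 35.2% of the 54 against 20.4% and 23.6% of all genes tested. Without library 3 of group C the 10 became 6 and the 19 became 13. The 19 also became 13 without library 2 of group B, and rose to 28 without library 2 of group C. The constitutive subunits were spread around 0 with a median log2 fold change of -0.06, which became 0.02 as TPM, 6 higher and 8 lower. Of the 7 beta subunits 6 were lower, from Psmb5 (-0.37 ± 0.10) to Psmb1 (-0.22 ± 0.07), whereas Psmb2 was at 0.05.

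Psme1 and Psme2 were the 2 members past both thresholds in group C vs. B, a call that 1.16% of all genes got. Psme1 fell by 1.11 ± 0.12 on the log2 scale (limma with Benjamini-Hochberg, adjusted p = 1.4e-05) and Psme2 by 1.03 ± 0.15 (adjusted p = 0.000104, limma), and the libraries of the 2 groups did not overlap for either gene. Psmb10 fell by 0.90 ± 0.15, Psme2b by 0.89 ± 0.11 and Psma7 by 0.67 ± 0.09. Upward, the largest changes were those of Adrm1 (0.42 ± 0.06) and of the alpha ring chaperone Psmg1, from 3.11, 2.72 and 3.58 FPKM in B to 4.21, 3.81 and 5.16 FPKM in C (0.38 ± 0.11, limma with Benjamini-Hochberg, adjusted p = 0.0139). Psmg1 was at 12.3, 12.3 and 12.8 FPKM in A and at 14.2, 11.5 and 14.5 FPKM in D, far above both groups with Cu/ES.

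TCA alone (group D vs. A) raised 18 members by the adjusted p and lowered 0, against 10.5% and 11.5% of all genes tested. No member was lower at an unadjusted p under 0.05 either, and limma-voom on recovered reads also gave 18 higher and 0 lower. This comparison shares group A with the one that led to the choice of the family, and a choice for high values in B vs. A favours members with low values in A. The rises were small: 15 of the 18 were constitutive subunits, whose median log2 fold change was 0.20, and every library of group D lay above every library of group A in 23 of the 32, as for 20.7% of all genes tested. The count rested on single libraries, falling to 9 without library 1 of group A, library 1 of group D or library 3 of group D, and to 11 without library 3 of group A.

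Psme3 had the largest rise with TCA alone, from 34.4, 31.8 and 33.4 FPKM in A to 53.1, 48.2 and 53.7 FPKM in D. It was at 54.8, 53.9 and 54.0 FPKM in B and at 73.3, 58.9 and 70.5 FPKM in C. The log2 fold change in group D vs. A was 0.62 ± 0.08 (limma with Benjamini-Hochberg, adjusted p = 0.000238). Psmc5, an ATPase subunit, was at 90.2, 87.3 and 95.0 FPKM in A and at 142, 121 and 136 FPKM in D, with 367, 370 and 398 FPKM in B and 340, 416 and 347.5 FPKM in C. Its rise of 0.55 ± 0.08 (limma with Benjamini-Hochberg, adjusted p = 0.000768) was followed by Adrm1 (0.51 ± 0.06) and Psmc4 (0.49 ± 0.08). By class, 4 of 6 ATPase and 9 of 12 non-ATPase subunits passed, against 1 of 7 alpha and 1 of 7 beta subunits. Nfe2l1 was higher too, by 0.27 ± 0.07 (limma with Benjamini-Hochberg, adjusted p = 0.0162), and the immunoproteasome subunits did not pass.

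The difference between the effects of TCA with and without Cu/ES equals the difference between C vs. D and B vs. A, so it contains the comparison that led to the choice of the family. A family chosen for high values in B vs. A is pushed towards negative differences, and the values are therefore given as a description. By the adjusted p of the interaction 26 members were more negative with Cu/ES and 1, Psmd8, more positive, where 19.8% and 17.7% of all genes tested were. With each library left out in turn, the 26 ran from 18 to 38. The lowest values were those of Psmb10 (-1.16 ± 0.21) and Psme2 (-1.15 ± 0.21), with Psme1 and Psme2b next (-1.07 and -1.02). Among the constitutive subunits the lowest were those of Psma7 (-0.75 ± 0.12) and Psmb5 (-0.73 ± 0.14). Psmd8, a lid subunit, was at 126, 109.9 and 123 FPKM in D against 123, 123 and 129 FPKM in A, and at 243, 236 and 241 FPKM in C against 201.5, 200.1 and 221.5 FPKM in B. Its value of 0.27 ± 0.09 missed the threshold without a filter on low values, with median-ratio scaling, without a trend, and without library 1 or 3 of group A, 1 or 2 of group B, 1 or 3 of group C or 2 of group D, while leaving out library 2 of group C gave 2 members more positive.

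**Figure D4:**
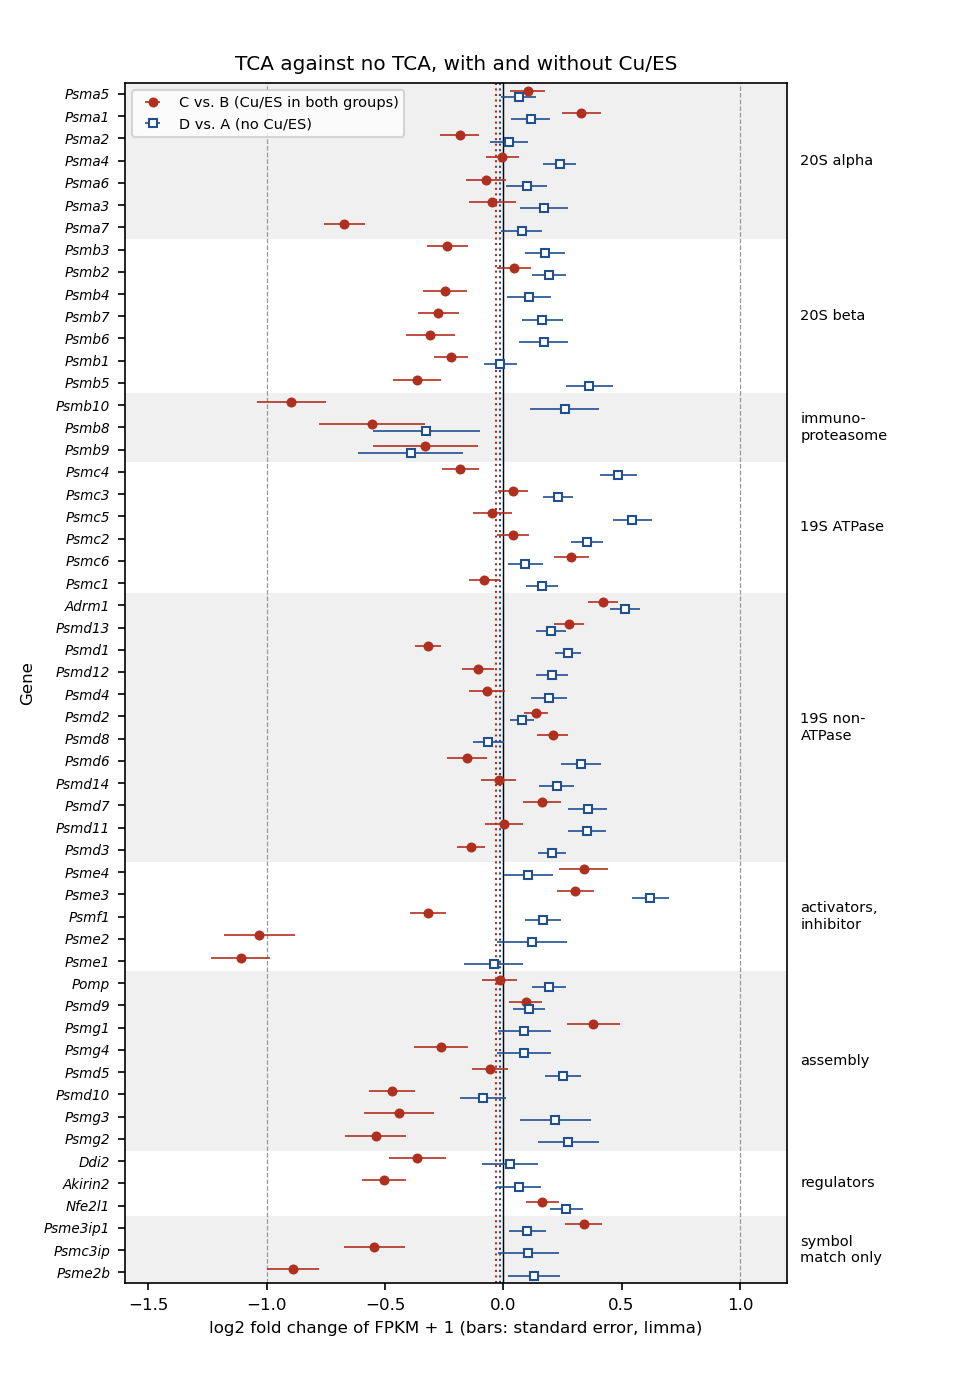
Log2 fold change of FPKM + 1 for each tested member by class, with standard error, for TCA with Cu/ES in both groups (C vs. B, filled circles) and without Cu/ES (D vs. A, open squares). Dotted lines mark the median of all genes tested. The 19S subunits lie at or right of 0 in D vs. A except for Psmd8, and Psme1 and Psme2 lie beyond -1 in C vs. B.

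Other genes of the pathway were read from a list of 22 genes that act with the proteasome or with NRF1. The list was made with earlier results of these data known, so its shares are a description. In group C vs. D, 10 rose and 6 fell past both thresholds, 45.5% and 27.3% of the list against the 11.2% and 53.3% of all genes. Zfand2a, a proteasome adaptor that is induced by arsenite, went from 12.1, 11.04 and 12.5 FPKM in D to 278, 264 and 270.4 FPKM in C (4.40 ± 0.07). The NRF partner Maff rose by 2.86 ± 0.09, the proteasome adaptor Zfand5 by 1.97 ± 0.06, the segregase Vcp by 1.90 ± 0.06 and its cofactor Ufd1 by 1.51 ± 0.06. The ubiquitin shuttle Ubqln1 rose by 1.58 ± 0.06 and the deubiquitinase Usp14 by 1.14 ± 0.06. Among those that fell were the ubiquitin ligase Ube3c (-2.96), Ngly1, which processes NRF1 (-2.80), the shuttles Ubqln2 (-1.55) and Ubqln4 (-1.46), and Nfe2l2, which encodes NRF2 (-1.05). Sem1, a small 19S subunit whose symbol lies outside the rule, was at -0.91 and passed the adjusted p alone.

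Between groups B and A, again with no test applied, 9 of the 22 were higher and 5 lower by a log2 fold change beyond 1, 40.9% and 22.7% against the 10.1% and 53.0% of all genes. Zfand2a was at 13.2, 11.35 and 13.05 FPKM in A and at 252, 251 and 251 FPKM in B, and Ngly1 was at 10.15, 10.98 and 9.26 FPKM in A and at 0.891, 0.710 and 0.336 FPKM in B. With TCA alone 7 of the 22 (31.8%, against 10.5% of all genes) were higher by the adjusted p and 0 lower, led by the Vcp cofactor Nploc4 (0.51 ± 0.08). In group C vs. B 4 were higher and 4 lower, 18.2% each way and no more than the 20.4% and 23.6% of all genes, from Uchl5, a deubiquitinase of the 19S particle (-0.61 ± 0.08), to the ubiquitin ligase Syvn1 (0.54 ± 0.08).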

How the data were processed

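The authors deposited FPKM values for 12 libraries of AML12 cells, 1 column per library with replicates kept apart, made per the submitters' processing notes with fastp, HISAT2 and HTSeq on GRCm39. The annotation is not given in the sources used here. No column of per-sample values was left out.

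From the FPKM, log2(FPKM + 1) was computed, and the 10615 genes with a mean of at least 1 FPKM were fitted with limma 3.58.1 in R 4.3.3, with the 4 groups as terms over all 12 libraries, 8 residual degrees of freedom and empirical Bayes moderation with a trend. Tests were two-sided, and Benjamini-Hochberg adjustment ran over the whole set of genes tested. Fold changes on this scale understate those of low genes. Calls used an adjusted p under 0.05, with an absolute log2 fold change above 1 for C vs. D. Values of B vs. A were counted by that fold change alone. Members, classes and lists were chosen with earlier results of these data known. All members are named by class, with values per library for the catalytic subunits and their partners, Nfe2l1, Pomp, the extremes of each class in C vs. D, and the largest calls in each direction of the other comparisons.

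Since FPKM values step by what 1 read is worth, whole reads and library totals could be read back, for 22210 of 22212 genes above 0 in at least 2 libraries (99.991%, within 0.02 reads). Totals ran from 29115011 to 39782142 reads (B from 30773752 to 32002324, D from 39444420 to 39782142). Limma-voom on these reads was an alternative. On simulated data, for B vs. A, limma recovered 196 of 199 changed genes among 10200, with 0 false calls. The simulation changed only well-read genes, by the same fold up and down, and held no shift of the median gene. It therefore cannot give error rates under a shift of the median gene such as that of B vs. A (-1.10), which were not tested.

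Libraries carry replicate numbers in the labels. Deviations from the group means correlated between libraries of the same number with r of 0.17, 0.17 and 0.14 across genes in groups A and B. In groups A and D r was 0.09, 0.58 and 0.30, and in B and C it was 0.28, 0.24 and 0.005. The labels do not say what the numbers mark, so a pairing of libraries is not shown. A fit with the replicate number as a block was an alternative for every comparison. Promoter windows are those of RefSeq for GRCm38.p6. Tables and plots were made in Python 3.11.15 with pandas 2.3.3, numpy 2.4.6 and matplotlib 3.10.9. The value of 1 other pathway gene is not reported here.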

Additional observations from a re-analysis of the deposited data

Results flagged for a closer look

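The effect of TCA was set against itself with and without Cu/ES, and the difference between the 2 effects was tested as an interaction in limma with Benjamini-Hochberg adjustment. It passed for 27 of 54 members, 26 of them more negative with Cu/ES and 1 more positive. The interaction contains the comparison of B and A, whose values led to the choice of the family and push it towards negative values, so these counts are a description and not independent evidence of a direction. The 2 lowest were Psmb10 (-1.16 on the log2 scale) and Psme2 (-1.15), and the positive one was Psmd8 (0.27). For Psmb10 the libraries of groups A and D overlapped, and those of B and C did not.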

How the results depend on the processing

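Counts past both thresholds in group C vs. D were 22 higher and 16 lower, and became 35 and 8 with median-ratio scaling, and 37 and 8 with limma-voom on recovered reads under that scaling, an alternative chosen after the data were seen. The 8 with limma-voom held Psmc3ip (-1.67) in place of Nfe2l1 (-0.91), which fell short of the fold threshold there. Quantile normalization gave 18 higher and 10 lower, and TPM gave 15 higher and 17 lower. The 26 members higher in B vs. A became 37 with median-ratio scaling, 22 with quantile normalization and 19 as TPM. Members lower in B vs. A, given as a description, went from 15 to 3 with median-ratio scaling. They went to 3 with limma-voom under that scaling and to 6 with quantile normalization. In that order the other pathway genes lower in C vs. D went from 6 to 2, 2 and 3. These scalings act on the shift of the median gene, and the cause of the other changes was not tested. Limma-voom with median-ratio scaling also gave 11 members lower in C vs. B and 17 more negative in the interaction. The 1 member more positive in the interaction became 0 without a filter, with median-ratio scaling and without a trend, and 3 as TPM or with quantile normalization. The median log2 fold change of the constitutive subunits was 1.58 in B vs. A and became 1.21 as TPM, 2.86 with median-ratio scaling, 1.16 with quantile normalization and 2.92 with limma-voom under median-ratio scaling. In C vs. D it was 1.25 and became 0.97, 2.505, 1.04 and 2.65 in that order. In C vs. B it turned from -0.06 to 0.016 as TPM, 0.006 with quantile normalization and 0.003 with limma-voom under median-ratio scaling.

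Leaving out each library in turn gave 6 to 10 members higher and 13 to 28 lower in C vs. B, and 9 to 17 higher in D vs. A. In the interaction it gave 0 to 2 more positive and 18 to 38 more negative. The 28 and the 38 both came from leaving out library 2 of group C. The medians of the constitutive subunits ran from 1.15 to 1.32 in C vs. D and from -0.155 to -0.008 in C vs. B. Direction turned for members of B vs. A under median-ratio scaling of FPKM (Akirin2 0.20, Psmd3 1.26, Psme2b 0.15, Psme3ip1 1.02, Psmg4 0.069), under quantile normalization (Ddi2 0.36), and with limma-voom under median-ratio scaling (Akirin2 0.26, Ddi2 0.047, Psmd3 1.32, Psmd5 0.047, Psme2b 0.21, Psme3ip1 1.12, Psmg4 0.13), and for C vs. D in the last setting (Psma7 1.11, Psmd3 1.03). In C vs. D, members short of the fold threshold also changed sign: Psma7 (0.97) and Psmd3 (0.89) with median-ratio scaling, Psmf1 with that scaling, quantile normalization and limma-voom under median-ratio scaling (0.24, 0.31 and 0.40), Psmb1 and Psmb5 as TPM (-0.10 and -0.16) and with quantile normalization (-0.275 and -0.22), and Psme3ip1 as TPM (-0.25). In the replicate block fit, counts were 22 and 16 in C vs. D, 9 and 19 in C vs. B, 17 and 0 in D vs. A and 26 and 15 in B vs. A, and that fit moved no count by over 1.5 times. Same-numbered libraries of C and D correlated with r of -0.17, -0.07 and 0.11, so the numbers are not shown to pair them. In the 250 bases before the start alone, 18.5% of the constitutive subunits held the antioxidant response element, against 14.2% of the genes tested. For the metal response element these shares were 37.0% and 34.5%. The pseudocount of 0.1, the stricter filter and the fit of only the groups compared left every count within 1.5 times.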
